A study of Rattus norvegicus with 6 samples.

Results

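The genes described here encode the folding and quality-control machinery of the endoplasmic reticulum (ER): chaperones, enzymes of disulfide bond formation, the machinery of ER-associated degradation (ERAD), and sensors and regulators of the response to unfolded protein. The list of 44 genes was given by symbol, and each gene was read from its Affymetrix probe set with the highest mean log2 signal. Of the 44 genes, 42 had a probe set annotated to that gene alone, out of 14217 such genes on the array, and 41 of those passed the filter on dim signals. Edem3 was below the filter, and Ern1 and Derl3 had no such probe set. By role, the list held 13 chaperones and folding helpers, 11 genes of oxidative folding, 15 of ERAD and 5 grouped as stress sensors. The last group also holds Xbp1 and Mbtps1, which act after the sensors.

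GH4C1 is an established rat cell line derived from a pituitary tumour, and it makes both growth hormone and prolactin. In the 3 R271W cultures a lentiviral vector carried POU1F1(R271W) followed by IRES-EGFP. POU1F1 is a transcription factor of pituitary hormone cells, and its submitters describe the R271W mutant as dominant negative. In the 3 control cultures the vector carried EGFP alone. In both groups the PGK promoter drove the transgene, cells received vector for 16 h at a multiplicity of infection of 5, and RNA was taken after a further 4 days in regular medium, with 1 array per culture. No group without vector and none with normal POU1F1 was analysed here, and the labels do not say whether cells were sorted or cloned, or which species the POU1F1 sequence came from. The replicates are called biological in the labels, and as nothing more on their origin is given there, p-values measure the spread between these cultures.

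Secreted proteins enter the ER unfolded. There the Hsp70 chaperone BiP, the lectins calnexin and calreticulin, and disulfide isomerases help them to fold, while proteins that fail to fold are recognised, drawn back into the cytosol and degraded by ERAD. When unfolded proteins accumulate, the kinases IRE1 and PERK and the membrane-bound factor ATF6 start the unfolded protein response. ATF6 and XBP1, the factor made after IRE1 splices its messenger RNA, raise transcription of many of these genes through short promoter elements, among them the ER stress response element (ERSE), which was described in mammalian cells. Lactotrophs and somatotrophs carry a heavy load of secretory protein and hold an extensive rough ER.

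In R271W cells the listed genes were lower as a group. The list was chosen with earlier results of these data known, so the counts describe it and are not a test. Of 41 tested genes, 27 fell and 0 rose (limma adjusted p under 0.05), where 8.98% of all 10143 tested genes fell and 9.87% rose. At an unadjusted p under 0.05 the counts were 34 lower and 0 higher. Of all 10143 tested genes, 1517 were lower and 1874 higher at that threshold. Among the 27 that fell, the signal in R271W cells ranged from 41.4% of the control level for Dnajc3 to 82.6% for Hspa5. The median log2 change (R271W minus control) was -0.40 over the 41 genes and 0.06 over all tested genes. The groups were fully separated, with all R271W arrays below the lowest control array, in 33 of the 41 genes and in 16.6% of all tested genes. Because an array averages over all cells of a culture, fewer cells that express a gene and less of its RNA per cell cannot be told apart.

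By role, 11 of 13 chaperone genes fell (median log2 change -0.41), 6 of 11 genes of oxidative folding (-0.47), 8 of 13 tested ERAD genes (-0.38) and 2 of 4 tested stress sensor genes (-0.21). On each array the median over the genes of a role, set against the mean of the controls, was lower on all 3 R271W arrays than on all 3 control arrays. For chaperones these array medians were -0.47, -0.55 and -0.32 on the log2 scale in R271W cells, against -0.02, 0.02 and -0.02 in controls. For stress sensors, with 4 genes, they were -0.14, -0.28 and -0.14 in R271W cells, against -0.08, 0.05 and 0.01 in controls. The differences between roles were not tested.

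**Figure D1:**
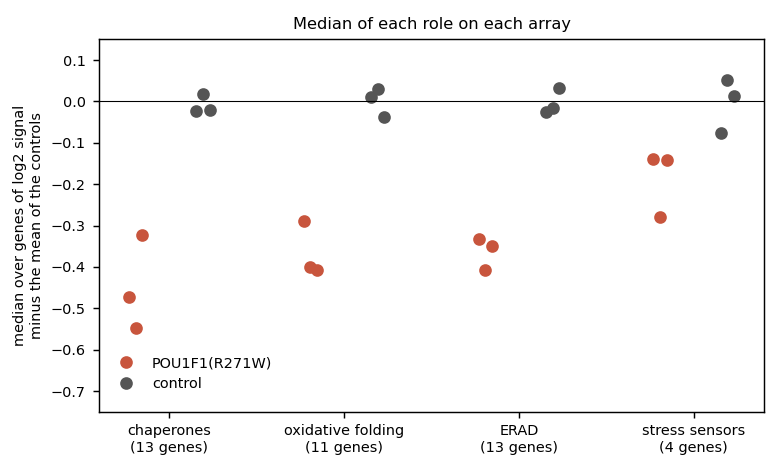
Median over the tested genes of each role of the log2 signal minus the mean of the controls (vertical axis), 1 point per array, POU1F1(R271W) left of control. In every role the 3 R271W points lie below the 3 control points, with chaperones between -0.55 and -0.32 and stress sensors between -0.28 and -0.14.

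Array scaling bears on these values. Median signals over all non-control probe sets were 25.5 to 26.9 on the R271W arrays and 22.4 to 22.9 on the control arrays, the hybridisation spikes read 0.23 higher on the R271W arrays (log2), and beta-actin signal at the 3' end over the 5' end was 1.96 ± 0.099 in R271W cells and 1.82 ± 0.0076 in controls (SD, n = 3 each). The poly-A spikes and the GAPDH ratio overlapped between groups. When each array was centred on its median, all log2 changes shifted by -0.20. The median of the 41 genes was then -0.60 and that of all tested genes -0.14. Of the 41, 37 fell and 0 rose, where 20.4% of all tested genes fell. Under quantile normalization the median of the 41 was -0.31 and that of all tested genes was 0.0043. Of the 41, 25 then fell and 0 rose, where 8.94% of all tested genes fell. Of all probe sets called, 54.3% were higher in R271W cells with the deposited scaling, 18.9% with median centring and 36.9% when arrays were centred on their 75th percentile. Bright probe sets were lower more often: among the 3536 genes with a mean signal of 200 or more, a split chosen after the values were seen, 19.7% fell, and 23 of the 30 listed genes in that range did.

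The line's own markers Gh1, Prl and Pou1f1 all had signals of 1738 or more on every array, while Ghrhr and Drd2 were below the filter. Prl fell (log2 change -0.45, limma adjusted p = 0.00048), and so did Pou1f1 at 1898, 1873 and 1738 in R271W cells, against 2281, 2399 and 2222 in controls (log2 change -0.33, limma adjusted p = 0.00486). Gh1 did not pass, and its groups overlapped (log2 change -0.03, limma adjusted p = 0.853). Whether the rat Pou1f1 probe set also reads the transgene is not given in the sources used here. Of 26 markers of other pituitary, stromal, endothelial or blood cells 24 had a probe set, 5 of which passed the filter. The summed signal of all 24 was 1524 to 1614 in R271W cells and 3119.8 to 3321 in controls. It came mostly from Dcn, which encodes the matrix proteoglycan decorin and fell to 1205 in R271W cells, against 2770.1 in controls. Sox2, a progenitor marker, also fell (log2 change -0.43, limma adjusted p = 0.0196). Without Dcn and Sox2, 22 probe sets were left, of which 3 passed the filter. The sum over all 22 was 181 to 220.1 in R271W cells and 174 to 229 in controls, and 0 of the markers read 0 on every array. The part of these shifts in the changes below was not tested.

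Promoter windows were searched for exact matches to the textbook element of the unfolded protein response. RefSeq windows from 250 bases before to 50 bases after the annotated start (build GRCr8) were given for 35 of the 44 genes. None was given for Manf, Creld1, Derl1, Ero1a, Pdia6, Os9, Atf6, Pdia3 or Ern1. ERSE, written CCAAT, then 9 bases, then CCACG, was searched on both strands. It was present in 9 of the 35 windows (25.7%) and in 21 of 27457 windows of all genes (0.0765%). As ERSE is known as an element of such genes, this contrast was foreseeable, and it was not tested. The 9 genes were Hspa5, Hsp90b1, Canx, Calr, Dnajc3, Creld2, Ero1b, Xbp1 and Derl3. The sequences below are those of 7 measured genes with ERSE, on the strand of the gene, with the fixed letters of ERSE in capitals. CGTGG followed by ATTGG is the same element on the other strand, and Hsp90b1 held 1 on each strand.
Dnajc3, chr15:102432524-102432562 (plus strand): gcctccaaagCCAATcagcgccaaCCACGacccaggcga
Creld2, chr7:121789229-121789267 (plus strand): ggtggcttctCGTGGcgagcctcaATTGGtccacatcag
Hsp90b1, chr7:23012441-23012479 (minus strand): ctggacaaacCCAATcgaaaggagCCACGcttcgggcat
Hsp90b1, chr7:23012337-23012375 (minus strand): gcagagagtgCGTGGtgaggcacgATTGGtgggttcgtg
Calr, chr19:40213125-40213163 (plus strand): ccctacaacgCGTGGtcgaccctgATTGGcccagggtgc
Hspa5, chr3:38452963-38453001 (plus strand): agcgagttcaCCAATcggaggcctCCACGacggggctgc
Xbp1, chr14:84604548-84604586 (plus strand): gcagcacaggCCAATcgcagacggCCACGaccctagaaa
Ero1b, chr17:92941448-92941486 (plus strand): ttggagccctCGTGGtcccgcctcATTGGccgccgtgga

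The first base of the element lay between -232 (Calr) and -43 (Hspa5) from the annotated start. A related element, ERSE-II, written ATTGG, then 1 base, then CCACG, was in 3 of the 35 windows (8.57%) and 15 of all 27457 (0.0546%): those of Hyou1, Dnajb11 and Herpud1. The core of the XBP1-binding UPRE, TGACGTGG, was in 6 of the 35 (17.1%) and 0.637% of all. In Hyou1 this core overlapped an ERSE-II. The Hyou1 and Herpud1 elements are shown with the ERSE-II letters in capitals.
Hyou1, chr8:53602684-53602714 (plus strand): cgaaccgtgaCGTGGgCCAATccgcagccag
Hyou1, chr8:53602784-53602814 (plus strand): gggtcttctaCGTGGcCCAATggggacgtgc
Herpud1, chr19:10614811-10614841 (minus strand): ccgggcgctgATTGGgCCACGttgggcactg

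Among the measured genes with a window, 7 of 8 with ERSE fell (median log2 change -0.41) and 14 of 25 without it fell (median -0.39). The range was -1.27 to -0.28 with the element and -0.90 to 0.13 without it. Some genes without ERSE held ERSE-II or the UPRE core. With any of the 3 elements 11 of 16 fell (median -0.41), and with none of them 10 of 17 (median -0.39). Genes with and without these letters in the window thus overlapped in their changes. A match is a string of letters and not a measured binding site. Elements with other letters, or outside the window, were not searched for.

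The genes that fell furthest were a pair of BiP partners and a disulfide enzyme. Dnajc3 encodes P58IPK, a J-domain co-chaperone of BiP that is also known as an inhibitor of PERK. Its signals were 222, 242 and 229.7 in R271W cells, against 549, 579 and 545 in controls. The log2 change was -1.27 (SE 0.0883, limma adjusted p = 1.35e-06), and the groups were far apart. Creld2, an ER protein with thioredoxin-like CXXC motifs, read 812, 689 and 672 in R271W cells, against 1547, 1792 and 1626 in controls, a log2 change of -1.19 (SE 0.0881, limma adjusted p = 2.21e-06). Sdf2l1, which binds ER J proteins and helps BiP to keep clients soluble, read 548, 537 and 538 in R271W cells, against 988, 1019 and 1028 in controls. Its log2 change was -0.90 (SE 0.0722, limma adjusted p = 4.39e-06), and in each group its arrays lay close together.

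**Figure D2:**
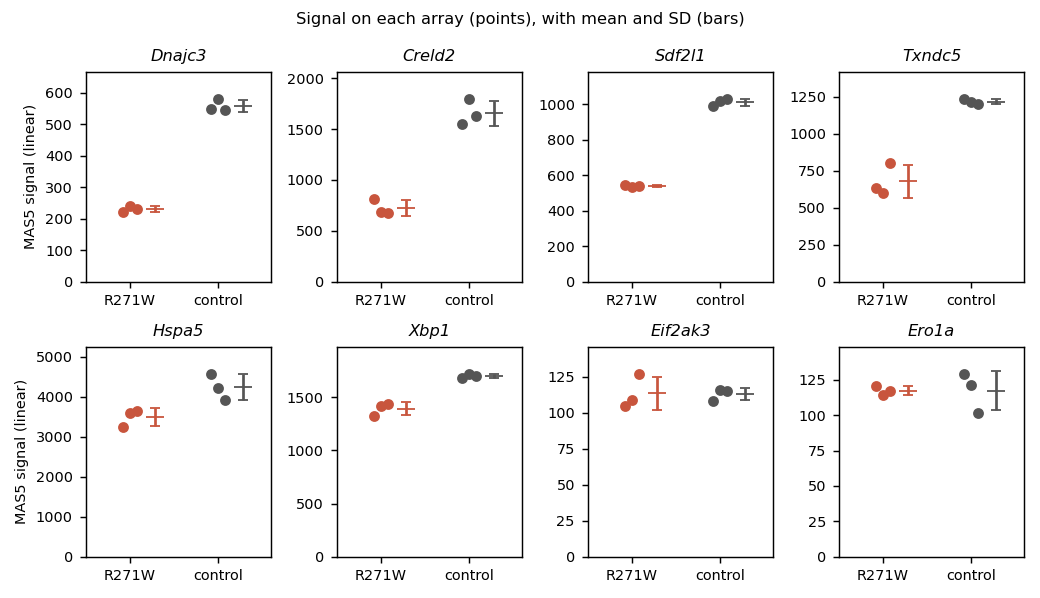
MAS5 signal on a linear axis from 0 for 8 of the genes, 1 point per array with the group mean and SD beside it, POU1F1(R271W) left of control. Dnajc3, Creld2, Sdf2l1 and Txndc5 are separated widely between the groups, Hspa5 and Xbp1 narrowly, and Eif2ak3 and Ero1a overlap.

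BiP and its partners fell to different extents. Hspa5, which encodes BiP itself, read 3251, 3592 and 3657 in R271W cells, against 4564, 4231 and 3924 in controls, a log2 change of -0.28 (SE 0.073, limma adjusted p = 0.0201). All R271W arrays lay below all control arrays, by a small margin. Its call ended without control replicate 1 (limma adjusted p = 0.111), control replicate 2 (0.0676) or R271W replicate 1 (0.0849). Dnajb11, the J protein ERdj3 that hands clients to BiP, read 637, 663 and 662 in R271W cells, against 969, 1257 and 986 in controls (log2 change -0.70, SE 0.0964, limma adjusted p = 0.000299). The groups did not overlap, and control replicate 2 stood above its fellows. Hyou1, the large Hsp70-like exchange factor of BiP, read 153, 98.0 and 134 in R271W cells, against 186, 235 and 222 in controls (log2 change -0.76, SE 0.161, limma adjusted p = 0.00589). R271W replicate 2 was the lowest of all, and a second probe set overlapped between groups (73.1, 62.4 and 43.4 in R271W cells, against 58.4, 91.9 and 59.7 in controls; log2 change -0.23, limma adjusted p = 0.576). The mean over both probe sets did not pass (log2 change -0.50, limma adjusted p = 0.0901). Manf, a small ER protein that binds BiP and can be secreted, read 1645, 1687 and 1695 in R271W cells, against 2576, 2623 and 2489 in controls (log2 change -0.61, SE 0.0629, limma adjusted p = 3.34e-05).

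The remaining BiP helpers did not pass the test. Dnajb9, the J protein ERdj4 that restrains IRE1, read 359, 371 and 391 in R271W cells, against 415, 427 and 439 in controls. The groups did not overlap, but the difference was small (log2 change -0.19, 95% interval -0.38 to -0.01, limma adjusted p = 0.15). Sil1, another exchange factor of BiP, read 144, 94.5 and 79.1 in R271W cells, against 114, 88.2 and 80.6 in controls, and its groups overlapped (log2 change 0.13, interval -0.33 to 0.59, limma adjusted p = 0.731). The sign for Sil1 turned without R271W replicate 1 (log2 change -0.11) and with median centring (-0.07).

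Outside the BiP system, Hsp90b1, which encodes the ER Hsp90 GRP94, read 2616, 2615 and 2892 in R271W cells, against 3649, 3667 and 3463 in controls (log2 change -0.41, limma adjusted p = 0.000948). For the glycoprotein lectins, Calr (calreticulin) read 1154, 1023 and 1195 in R271W cells, against 1373, 1513 and 1608 in controls (log2 change -0.41, limma adjusted p = 0.00406), and Canx (calnexin) read 1476, 1453 and 1778 in R271W cells, against 1975, 2105 and 2067 in controls (log2 change -0.39, limma adjusted p = 0.00527). In each of these 3 genes all R271W arrays lay below all control arrays. The other 2 probe sets of Canx also fell, with log2 changes of -0.31 and -0.72.

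Both prolyl isomerases on the list, which turn peptide bonds before proline, fell. Ppib, cyclophilin B, read 956, 893 and 1101 in R271W cells, against 1297, 1234 and 1318 in controls (log2 change -0.39, limma adjusted p = 0.00628). Fkbp2 read 321, 364 and 376 in R271W cells, against 570.0, 518 and 532 in controls (log2 change -0.61, limma adjusted p = 0.000547). The probe sets of Fkbp2 disagreed: another fell (350.0, 356 and 305 in R271W cells, against 439, 522 and 496 in controls; log2 change -0.53, limma adjusted p = 0.00271), while a further one rose (68.3, 96.3 and 72.8 in R271W cells, against 60.6, 34.7 and 40.3 in controls; log2 change 0.83, limma adjusted p = 0.0312). The mean over these probe sets gave a log2 change of -0.10 (limma adjusted p = 0.592). Mean signals were 436 and 403 for the probe sets that fell and 58.6 for the one that rose. The direction for Fkbp2 thus differed between its brighter probe sets and the dim one.

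**Figure D3:**
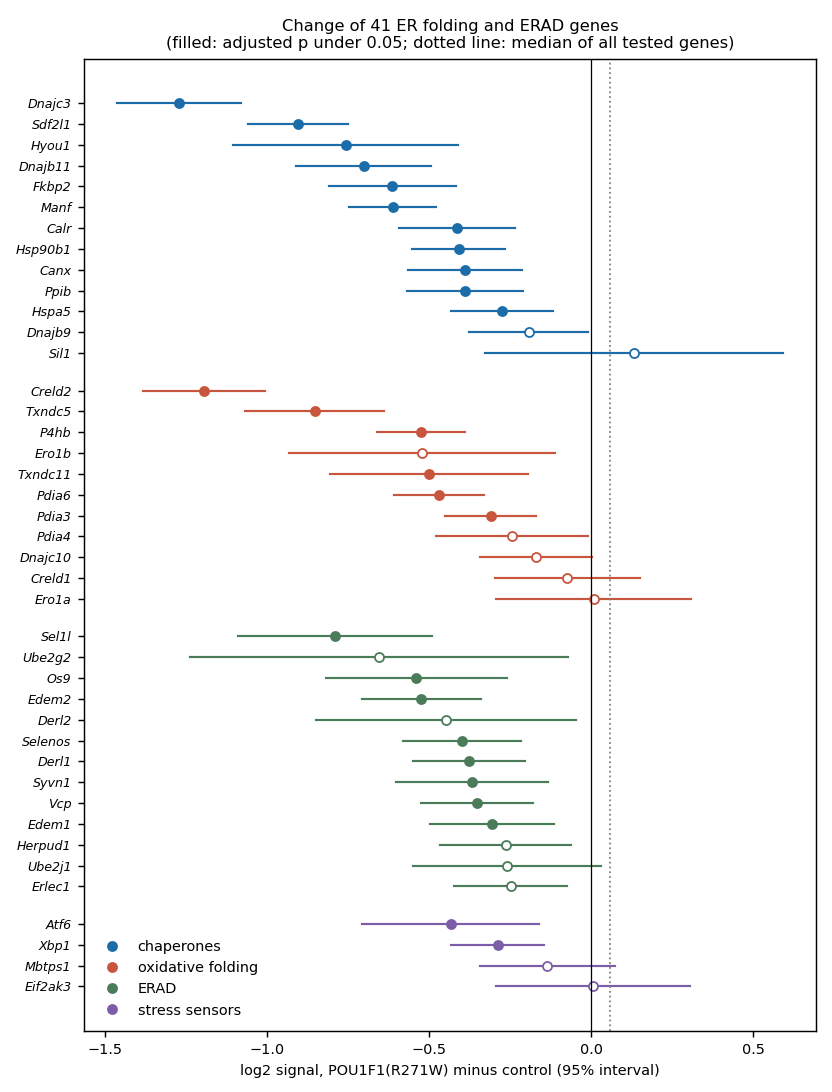
Log2 change (R271W minus control, horizontal axis) of the 41 tested genes with limma 95% intervals, grouped by role and ordered by size. Filled points passed an adjusted p of 0.05, and the dotted line marks the median of all tested genes at 0.06. Points run from -1.27 for Dnajc3 to 0.13 for Sil1, and every filled point lies below 0.

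Oxidative folding depends on disulfide isomerases, which are kept oxidised by the ERO1 oxidases. Of 11 genes 6 fell and 0 rose. Beside Creld2, the largest change was in Txndc5, an isomerase with several thioredoxin domains, which read 636, 597 and 806 in R271W cells, against 1234, 1216 and 1202 in controls (log2 change -0.85, SE 0.0995, limma adjusted p = 8.98e-05). R271W replicate 3 was the highest of its group and still far below the controls. P4hb, the founding isomerase PDI, read 1797, 1810.1 and 1720.3 in R271W cells, against 2513, 2568 and 2587 in controls (log2 change -0.53, limma adjusted p = 0.000105). Pdia6 read 2634, 2517 and 2592 in R271W cells, against 3422, 3779.9 and 3529 in controls (log2 change -0.47, limma adjusted p = 0.000288). Pdia3, the isomerase ERp57 that works with calnexin and calreticulin, read 2593, 2399 and 2677 in R271W cells, against 3226, 3190.4 and 3086 in controls (log2 change -0.31, limma adjusted p = 0.00551), while its second probe set overlapped between groups (log2 change 0.27, limma adjusted p = 0.494). That second probe set was dim, at a mean signal of 53.0 against 2844 for the one chosen. The mean over both probe sets of Pdia3, which weighs them equally, was -0.02 (limma adjusted p = 0.929). In these 4 genes no R271W array reached a control array on the probe set chosen.

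Txndc11, a membrane protein with thioredoxin domains, read 101, 102 and 111 in R271W cells, against 131, 143 and 172 in controls (log2 change -0.50, limma adjusted p = 0.0284). The groups did not overlap, but the call ended when any of 4 arrays was left out: the control arrays 2 (0.0622) and 3 (0.133), and the R271W arrays 1 (0.0715) and 2 (0.0812). The other 5 genes did not pass.

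The oxidase gene Ero1b read 147, 145 and 84.7 in R271W cells, against 195, 178 and 153 in controls (log2 change -0.52, limma adjusted p = 0.0829), with R271W replicate 3 well below its fellows. Without that array the log2 change was -0.26. The mean with its second probe set was 0.49 (limma adjusted p = 0.662). That probe set was below the filter, at a mean signal of 1.34, so this mean shows no direction for Ero1b. Its paralog Ero1a read 121, 114 and 117 in R271W cells, against 129, 121 and 102 in controls, with groups that overlapped (log2 change 0.0072, interval -0.29 to 0.31, limma adjusted p = 0.979). Pdia4, which encodes the isomerase ERp72, read 712, 652 and 814 in R271W cells, against 810.3, 1011 and 766 in controls (log2 change -0.24, limma adjusted p = 0.154). Dnajc10, which encodes the disulfide reductase ERdj5, read 473, 471 and 462 in R271W cells, against 536, 545 and 501 in controls (log2 change -0.17, limma adjusted p = 0.179). Creld1, a relative of Creld2, read 201, 205 and 191 in R271W cells, against 211, 213 and 204 in controls (log2 change -0.07, interval -0.30 to 0.15, limma adjusted p = 0.689). The groups overlapped for Pdia4 and Creld1 and were separated for Dnajc10. Without control replicate 2 the change of Pdia4 was -0.12.

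Of 13 tested ERAD genes 8 fell and 0 rose, and all 13 had fitted changes below 0. Recognition begins with the EDEM proteins, which trim mannose from misfolded glycoproteins, and the lectins OS9 and ERLEC1, which read the trimmed glycan. Edem2 read 353, 339.9 and 324 in R271W cells, against 504, 475 and 483 in controls (log2 change -0.52, limma adjusted p = 0.00101). Edem1 read 356, 325 and 365 in R271W cells, against 419.6, 424 and 448 in controls (log2 change -0.31, limma adjusted p = 0.0319), and its other probe sets had log2 changes of -0.74 (limma adjusted p = 0.0362) and -0.79 (0.0564). In both genes the groups did not overlap. The call of Edem1 ended without control replicate 1 (0.0642), 2 (0.0757) or 3 (0.113) or R271W replicate 1 (0.0517) or 2 (0.122). Os9 read 158, 147 and 194 in R271W cells, against 214, 251 and 256 in controls (log2 change -0.54, limma adjusted p = 0.012), a call that ended without control replicate 3 (0.0553) or R271W replicate 2 (0.0569). Its second probe set, at a mean signal of 53.8 against 199, overlapped between groups (log2 change -0.08, limma adjusted p = 0.891). The mean over both, weighed equally, was -0.31 (0.296). Erlec1 read 739.6, 755 and 863 in R271W cells, against 897, 959 and 939 in controls and did not pass (log2 change -0.25, limma adjusted p = 0.0522), and its second probe set overlapped between groups (-0.05, 0.759). Erlec1 was called lower in 7 of 13 alternative settings and in 1 of 6 fits with an array left out. Edem3 was dim on every array, at signals of 0.536 to 12.5 in R271W cells and 1.97 to 10.3 in controls, and was not tested.

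Recognised proteins pass to the ubiquitin ligase HRD1, encoded by Syvn1, through its membrane adaptor SEL1L. Sel1l had the largest change of the tested ERAD genes, at 138, 149 and 109 in R271W cells, against 232, 202 and 247 in controls (log2 change -0.79, SE 0.139, limma adjusted p = 0.00174). Syvn1 read 179.6, 205 and 183 in R271W cells, against 229, 241 and 262 in controls (log2 change -0.37, limma adjusted p = 0.0357). The groups did not overlap in either gene. The Syvn1 call ended without control replicate 1 (0.0522), 2 (0.0864) or 3 (0.135) or R271W replicate 1 (0.0948) or 3 (0.0757). Herpud1, which helps to assemble the HRD1 complex, read 321, 345 and 338 in R271W cells, against 423, 364 and 420.3 in controls and did not pass (log2 change -0.26, limma adjusted p = 0.0758). Neither did the genes of ubiquitin-conjugating enzymes that serve ERAD. Ube2j1 read 224, 156 and 170.1 in R271W cells, against 213, 215 and 222 in controls (log2 change -0.26, limma adjusted p = 0.22). Ube2g2 read 92.4, 105 and 42.1 in R271W cells, against 106, 133 and 113 in controls (log2 change -0.65, interval -1.24 to -0.07, limma adjusted p = 0.123). The groups overlapped for Ube2j1 and were separated for Herpud1 and Ube2g2. Without R271W replicate 3 the change of Ube2g2 was -0.24. That of Ube2j1 was -0.15 without R271W replicate 2 and -0.41, which passed (limma adjusted p = 0.0406), without R271W replicate 1.

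Extraction into the cytosol uses derlins and the ATPase VCP, also called p97. Derl1 read 1178, 1048 and 1058 in R271W cells, against 1331, 1384 and 1552 in controls (log2 change -0.38, limma adjusted p = 0.00593), and its other probe sets had log2 changes of -0.36 (limma adjusted p = 0.00457) and -0.35, which did not pass (0.0517). Selenos, a selenoprotein that ties VCP to the ER membrane, read 679, 570.2 and 677 in R271W cells, against 828, 846 and 856 in controls (log2 change -0.40, limma adjusted p = 0.00601). Vcp read 1262, 1325 and 1137 in R271W cells, against 1694, 1472 and 1588 in controls (log2 change -0.35, limma adjusted p = 0.00857). All R271W arrays of these 3 genes lay below all control arrays, and the call of Vcp ended under quantile normalization (log2 change -0.23, limma adjusted p = 0.0722). Derl2 read 80.3, 97.7 and 99.5 in R271W cells, against 145, 147 and 92.8 in controls (log2 change -0.45, limma adjusted p = 0.125). The groups overlapped for Derl2, which was called lower only with median centring and without control replicate 3.

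The stress sensors were split. Xbp1, whose spliced product is a transcription factor of the response, read 1324, 1414 and 1436 in R271W cells, against 1681, 1714 and 1699 in controls (log2 change -0.29, SE 0.0666, limma adjusted p = 0.00961). The groups did not overlap, and the call ended under quantile normalization (log2 change -0.16, limma adjusted p = 0.0779). Whether the probe set separates spliced from unspliced Xbp1 is not given in the sources used here. Atf6 read 229, 182 and 168 in R271W cells, against 243, 278 and 257 in controls (log2 change -0.43, SE 0.126, limma adjusted p = 0.0323). Here R271W replicate 1 came close to the lowest control, and the call ended without control replicate 1 (0.0524), 2 (0.117) or 3 (0.0804) or R271W replicate 2 (0.103) or 3 (0.0977). A dimmer second probe set of Atf6 (mean signal 37.1) did not pass (log2 change -0.92, limma adjusted p = 0.0782). The mean over both was -0.68 (0.0217). Eif2ak3, which encodes PERK, read 105, 109 and 127 in R271W cells, against 108, 116 and 115 in controls. Its groups overlapped (log2 change 0.0042, interval -0.30 to 0.30, limma adjusted p = 0.987). Mbtps1, the site-1 protease that cleaves ATF6 in the Golgi, read 394, 336 and 402 in R271W cells, against 387, 432 and 421 in controls and also overlapped (log2 change -0.13, interval -0.34 to 0.07, limma adjusted p = 0.394).

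Related members can be set against each other within an array, and the ratio is not altered when an array is multiplied by a constant. Of 9 such pairs, chosen after the values were seen, 7 had R271W arrays that did not overlap the controls. Because of that choice, the separation and the p-values below describe these pairs and give no separate support. The log2 ratio of Creld2 to Creld1, relative to the mean of the controls, was -0.96, -1.23 and -1.16 in R271W cells, against -0.10, 0.09 and 0.01 in controls. That of Dnajc3 to Hspa5 was -0.95, -0.97 and -1.07 in R271W cells, against -0.13, 0.05 and 0.08 in controls. Dnajc3 was thus lower relative to BiP on every R271W array, and relative to its J-domain relative Dnajb9 the mean difference was -1.08. Mean differences were smaller for P4hb to Pdia3 (-0.22), Edem2 to Edem1 (-0.22), Xbp1 to Eif2ak3 (-0.29) and Ero1b to Ero1a (-0.53), while Pdia6 to Pdia4 (-0.23) and Derl1 to Derl2 (0.07) overlapped. For Ero1b to Ero1a the ratios were -0.30, -0.24 and -1.05 in R271W cells, so replicate 3 weighs most in that mean. The two-sided exact permutation p was 0.1 for each of the 7 and 0.129 adjusted over the 9 pairs, and 0.1 is the smallest p that 3 arrays against 3 allow.

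On a list of 102 further genes of ER folding, ERAD and stress signalling, 84 were tested, of which 17 fell (20.2%) and 2 rose (median log2 change -0.09). Of all tested genes 8.98% fell, and of those with a mean signal of 200 or more 19.7% did, close to the share on this list, whose median signal was 210.2. Of 16 other chaperone and prolyl isomerase genes 4 fell and 0 rose, with Fkbp11, a prolyl isomerase of secretory cells, at 612, 670.0 and 760.4 in R271W cells, against 1656, 1521 and 1586 in controls (log2 change -1.23, limma adjusted p = 1.36e-06). The J-protein gene Dnajc1 (-0.46) and Hspa13 (-0.53), an Hsp70 relative, also fell. Of 15 other genes of oxidative folding 4 fell and 0 rose, among them the thioredoxin-like Tmx1 (-0.53), Erp29 (-0.47) and Pdia5 (-0.70). Of 32 other ERAD genes 6 fell (18.8%) and 2 rose, with 17 fitted below 0 and 15 above. Erlin1, part of a membrane complex that hands proteins to ERAD, fell (log2 change -0.81), as did the VCP cofactor gene Nploc4 (-0.53), whereas Tmub2, which encodes a membrane protein with a ubiquitin-like domain, rose (0.98), with signals of 182, 168 and 193 in R271W cells, against 88.6, 85.5 and 101 in controls. The other gene that rose was Faf2 (0.65), a VCP adaptor, named after its value was seen.

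Of 21 other stress signalling genes 3 fell and 0 rose. At an unadjusted p under 0.05, 6 of the 21 were lower and 0 higher, against 1517 lower and 1874 higher of all 10143 tested genes. By adjusted p the share of the 21 that fell was 14.3%. It stood against 8.98% of all tested genes and 19.7% of those with a signal of 200 or more, and nothing is read from it about the list. Atf4, which encodes a transcription factor of the PERK branch, read 2363, 2368 and 2529.9 in R271W cells, against 2925, 2988 and 2764 in controls (log2 change -0.26, limma adjusted p = 0.0156). Trib3, a pseudokinase gene induced by this branch, read 389, 359.8 and 409 in R271W cells, against 554, 597 and 499 in controls (log2 change -0.51, limma adjusted p = 0.00235). Nfe2l2, which encodes the oxidative stress factor NRF2, fell as well (log2 change -0.29). Other genes induced by ATF4 did not pass: Ddit3 had a log2 change of 0.20 (limma adjusted p = 0.236, R271W arrays all above the controls), Chac1 of 0.17 (0.239) and Ppp1r15a of -0.22 (0.409). These 3 were named after their values were seen.

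Without the intensity trend, which lets the assumed spread follow the signal, 11 of the 41 genes fell and 0 rose, against 2.81% of all tested genes that fell. Those 11 were Dnajc3, Sdf2l1, Manf, Dnajb11, Fkbp2, Creld2, Txndc5, P4hb, Pdia6, Edem2 and Sel1l, whose limma adjusted p values under that model ran from 0.0147 for Dnajc3 to 0.0496 for Pdia6.

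**Figure D4:**
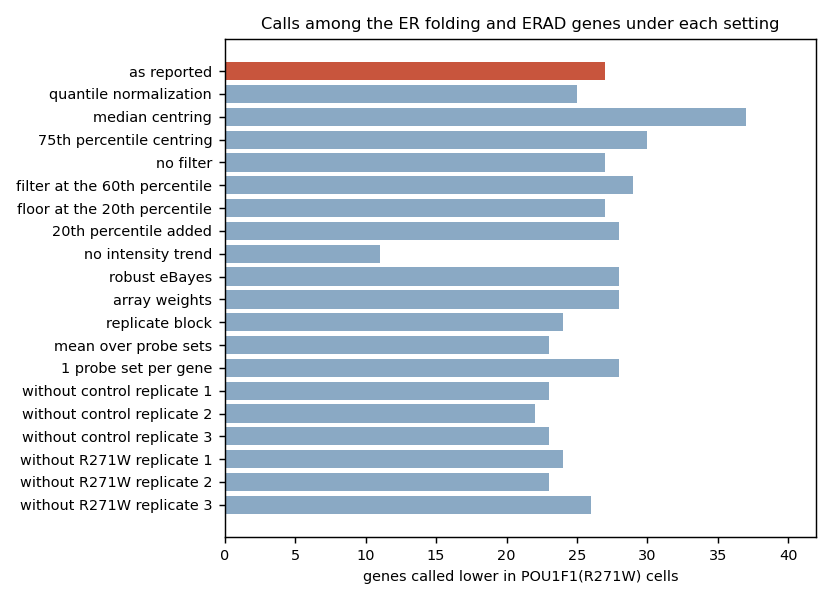
Number of the 41 tested genes called lower in POU1F1(R271W) cells (horizontal axis) as reported and under each alternative setting. The count was 27 as reported, 11 without the intensity trend and 37 with median centring, and stayed between 22 and 26 when single arrays were left out. Of all tested genes 8.98% fell as reported, 2.81% without the trend and 20.4% with median centring.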

How the data were processed

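RNA from 6 GH4C1 cultures was hybridised to Affymetrix rat arrays, 1 array each. The deposited intensity values hold 1 linear signal per probe set, and the authors computed them in MAS5 (source: the submitters' processing notes). Which MAS5 version was used is not given in the sources used. Each array's mean, after trimming 2% at each end, was 100, which ties dim signals to bright ones. Array number limits precision.

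Of 31042 non-control probe sets, 20826 had 1 symbol in the platform annotation. Log2 signals were tested, R271W minus control, with limma 3.58.1 in R 4.3.3 (lmFit, eBayes with an intensity trend, two-sided, no further scaling) on the 18625 probe sets with a mean log2 signal at or above the 40th percentile (signal 11.2). P-values were adjusted over all of these by Benjamini-Hochberg, with a threshold of 0.05. The procedure was tested on simulated data. Exact permutation tests used scipy 1.17.1, figures matplotlib 3.10.9, and motif searches Python 3.11.15 on RefSeq promoter windows.

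The members and lists were chosen with earlier results of these data known. Of each further pathway list up to 3 genes with the smallest p were named; array values of members that did not pass were added after values were seen. Alternatives covered scaling, filters, variance model, probe set choice, a replicate block and single left-out arrays. Expression of Ern1 and Derl3 was not analysed here, and not every matched promoter element is printed. Same-numbered arrays of the groups were not paired, since their deviations correlated at -0.0201 to 0.0101.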

Additional observations from a re-analysis of the deposited data

How the results depend on the processing

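The members that fell were fitted below 0 under every alternative run, and 0 members rose under any of them (limma; also 0 at an unadjusted p under 0.05 as reported). The count lower was 27 as reported, 11 without the intensity trend (27 at an unadjusted p under 0.05), 37 with median centring, 24 with the replicate number as a block and 23 with the mean over probe sets. It was 22 to 26 when single arrays were left out. Of all tested genes 8.98% fell as reported, 2.81% without the trend, 20.4% with median centring and 7.61% with the replicate block. That share was 7.62% with the mean over probe sets and 6.45% to 9.13% when single arrays were left out. Of the 27, 10 were called in every setting and leave-out, and 21 without any 1 array. The median log2 change of tested members was -0.40 as reported, -0.31 under quantile normalization, -0.60 with median centring and -0.48 with 75th percentile centring. Without the intensity trend 5 chaperone, 2 ERAD and 0 stress sensor genes fell (limma; 2 sensors at an unadjusted p under 0.05), and with median centring 13 ERAD genes fell. For stress sensors 1 fell under quantile normalization, 1 with the replicate block, and 1 to 2 with single arrays left out. The replicate block ended the calls of Hspa5 (adjusted p = 0.0621), Edem1 (0.0582), Syvn1 (0.0601) and Atf6 (0.0507), and Ero1b was called only there and with median or 75th percentile centring. Same-numbered arrays correlated at -0.0201 to 0.0101 in their deviations, within the range of -0.0207 to 0.0228 over all 9 cross-group array pairs, so the block marks only a shared number. Over all probe sets 1344 were called lower and 1596 higher as reported, and 431 lower and 634 higher without the trend. Signal over background limits what dim probe sets can show, and Edem3 was below the filter as reported.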
